A study of Mus musculus with 2 samples.

Results

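Transcription factors of the Hox, Tbx, Sox, Gata, Klf, Meis, Pbx and Nkx families were compared between lungs of Rosa26-Foxm1 mice and of wild-type mice. The members were taken by symbol from the probes that the platform annotation gives to a single gene, which yielded 90 genes of the 13840 named on the array. These were 30 Hox, 12 Tbx, 15 Sox, 6 Gata, 14 Klf, 3 Meis, 1 Pbx and 9 Nkx genes. The rule reads symbols and no intensity. All but 1 of the 90 rested on a single probe, and Klf2 had 2.

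The Rosa26-Foxm1 mice carried a Foxm1 transgene named after Rosa26, a locus active in most cell types, whereas wild-type animals were males of the FVB/N strain. Sex and strain of the Rosa26-Foxm1 mice and the age of either group are not given in the labels used here, so genotype cannot be told apart from these. All mice of both groups had received the carcinogen 3-methylcholanthrene once (MCA, 15 µg/g body weight, intraperitoneally) and the lung tumour promoter butylated hydroxytoluene weekly (BHT, 6 injections, 150 µg/g at first and 200 µg/g later). Lungs were taken 12 weeks after MCA, and each group was 1 array of RNA pooled from the left lobes of 3 mice. No untreated lung was analysed here, so the values describe the genotypes only under the carcinogen protocol.

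Each of these families is defined by its DNA-binding domain. Hox and Nkx proteins bind through a homeodomain, Meis and Pbx proteins through a homeodomain of the TALE class that pairs with Hox proteins on DNA, and T-box, SOX, GATA and KLF proteins through a T-box, an HMG box, a pair of GATA zinc fingers and a run of Krüppel-type zinc fingers. The factors set up regions and cell types of the embryo, and many stay active in the adult. In the mouse lung Nkx2-1 specifies the epithelium, Tbx4 and Tbx5 act in the mesenchyme around the growing airways, Hoxa5 is needed for normal lung form, and Sox7, Sox18 and Klf2 act in endothelium.

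With 1 array a group there was no spread between replicates and no test was possible, so the values describe 2 pools of mice. Intensities were quantile normalised between the arrays, and the floor was their median, 1.00. A gene was measured if it lay above the floor on at least 1 array. Differences are log2, Rosa26-Foxm1 minus wild type, and a fold against a value below the floor is a lower bound. The probe SD is the error of the log2 difference of 1 probe, taken from 2 probes of the same gene. It was 0.31 over 317 genes, 0.38 in the dimmer pairs and 0.23 in the brighter ones, split at a normalised intensity of 10.5. It holds neither the spread between mice nor errors common to an array. Deposited intensities ran from 0.0510 to 2268 on the Rosa26-Foxm1 array and from 0.0294 to 2820 on the wild-type array. After normalisation, the type II cell gene Sftpb, which marks lung, had 1437 in Rosa26-Foxm1 and 1757 in wild-type lung. Foxm1 itself lay near the floor, with 1.23 in Rosa26-Foxm1 and 1.13 in wild-type lung, so its probe does not check the genotype labels.

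Of the members at least 1.5-fold apart and above the floor on both arrays, 4 had an entry in the promoter table, and these promoters are shown because they belong to the genes the comparison turns on. Each is the 250 bases before the gene's start in the mouse assembly GRCm38.p6, from RefSeq, read 5′ to 3′ on the gene's strand. Capitals mark GC boxes (GGGCGG or CCGCCC, the letters that Sp and Klf proteins are known to bind) and E boxes (CACGTG). In Klf11, GC boxes that overlap are marked as 1 run.
Gata5, chr2:180334680-180334929, minus strand: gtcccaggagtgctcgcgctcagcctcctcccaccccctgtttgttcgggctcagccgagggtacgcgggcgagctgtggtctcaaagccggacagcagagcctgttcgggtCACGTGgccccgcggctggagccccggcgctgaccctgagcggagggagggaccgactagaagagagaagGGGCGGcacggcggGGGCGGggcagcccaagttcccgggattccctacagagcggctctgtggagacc
Klf11, chr12:24651121-24651370, plus strand: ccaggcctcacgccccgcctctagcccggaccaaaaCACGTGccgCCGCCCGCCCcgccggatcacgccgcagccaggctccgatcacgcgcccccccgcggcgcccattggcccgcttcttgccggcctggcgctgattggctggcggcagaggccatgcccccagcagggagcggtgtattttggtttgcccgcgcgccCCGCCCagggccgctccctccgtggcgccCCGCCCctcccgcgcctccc
Klf15, chr6:90462326-90462575, plus strand: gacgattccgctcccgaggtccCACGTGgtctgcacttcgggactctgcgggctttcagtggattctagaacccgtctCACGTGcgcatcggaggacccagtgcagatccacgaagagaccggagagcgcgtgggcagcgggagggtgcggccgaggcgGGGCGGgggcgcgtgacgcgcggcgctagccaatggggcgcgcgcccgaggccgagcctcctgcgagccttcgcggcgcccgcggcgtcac
Meis1, chr11:19018970-19019219, minus strand: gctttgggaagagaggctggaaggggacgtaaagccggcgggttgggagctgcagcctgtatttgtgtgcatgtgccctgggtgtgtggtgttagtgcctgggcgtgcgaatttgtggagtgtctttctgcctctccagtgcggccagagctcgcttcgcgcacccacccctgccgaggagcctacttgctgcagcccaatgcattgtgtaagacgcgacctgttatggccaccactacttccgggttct
The Klf11 window held 4 GC boxes and 1 E box, and the Klf15 window 1 GC box and 2 E boxes. Gata5 had 2 GC boxes and 1 E box, and Meis1 had neither motif. Of 32851 promoter windows of the same length in the table, 32.7% held a GC box and 6.02% an E box. Promoters were found for 32 of the 46 measured members, in 35 windows, and 21 of these genes held a GC box and 5 an E box. Members are counted here by gene, over any of its windows, whereas the shares of all promoters are by window. Of the other motifs searched on both strands, CACCC was in 20 of the 32 genes, CCAAT in 13 and TTTGAA in 2. Of all windows, 52.0%, 33.8% and 16.0% held these. The GATA site AGATAA and the forkhead core TGTTTAC were in none of the 32. They were in 9.99% and 3.17% of all windows. Sox18, Tbx2 and Tbx3 had no entry in the table.

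As a set, the measured factors lay slightly lower in Rosa26-Foxm1 lung than the bulk of genes. Of the 90 members, 46 were measured, against 68.8% of all named genes, and 44 were below the floor on both arrays. Of the 46, 8 were at least 1.5-fold lower, 1 was at least 1.5-fold higher and 37 lay between. The 8 lower ones are 17.4% of the measured members, where 8.45% of the 9516 measured genes were lower by that size. With the other scalings tried, 5 or 6 members were lower, so this contrast was smaller. The 1 higher one is 2.17%, where 7.07% of all measured genes were higher. Of the 9, Gata1 and Hoxd9 did not reach the floor in Rosa26-Foxm1 lung, so their folds are bounds. At the 2-fold size, 1 member was lower and none was higher, against 1.51% and 1.98% of all measured genes.

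The median difference of the 46 was -0.16, with genes at their bound, and that of all measured genes was -0.06. In all, 34 of the 46 lay below 0, or 73.9%, against 56.0% of all measured genes. For 18 members the difference was larger than the probe SD of 0.31, with 17 of these lower and 1 higher in Rosa26-Foxm1 lung. Differences of that size were common, since of the 9516 measured genes 2278 were lower and 1791 higher by more than the probe SD. Since every value comes from a piece of whole lung, fewer cells of a type and less RNA per cell cannot be told apart in any of them.

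**Figure D1:**
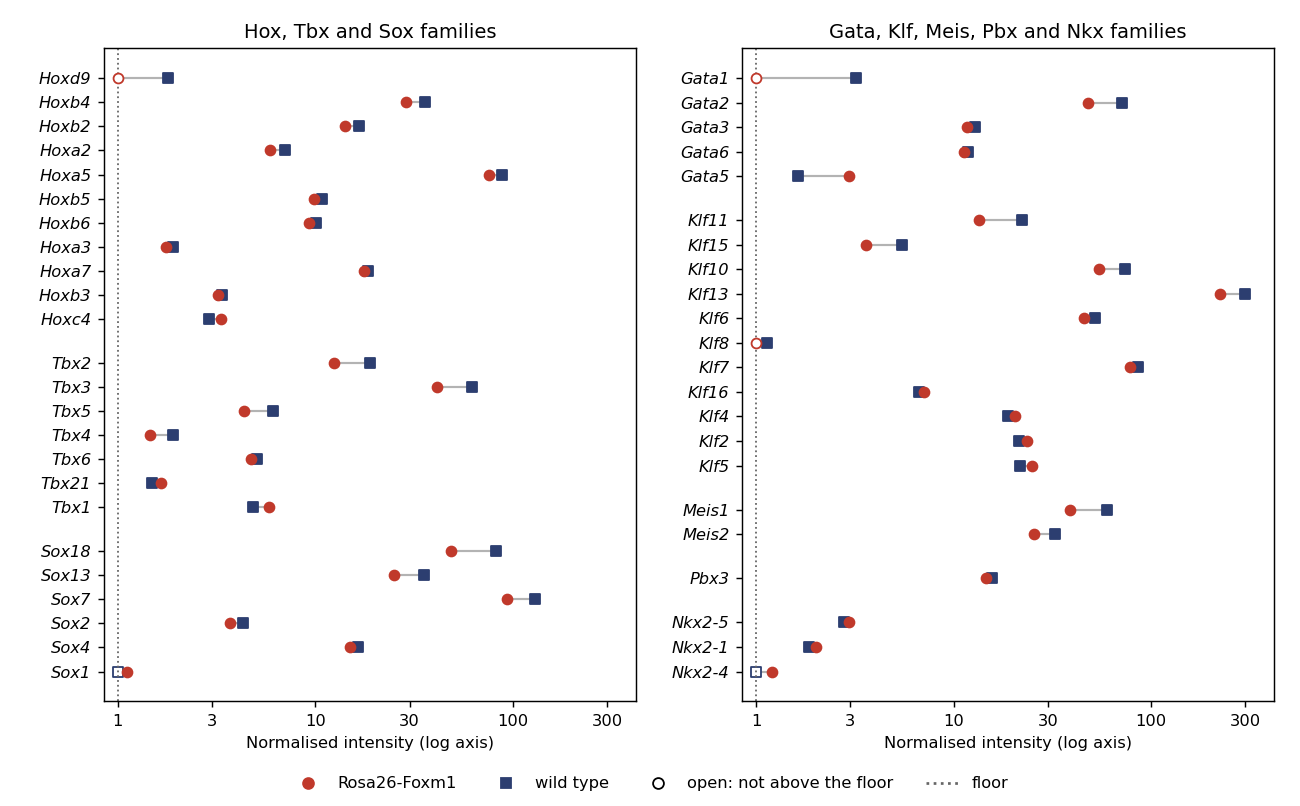
Normalised intensity (log axis) of the 46 measured members, with 1 line per gene, a red circle for Rosa26-Foxm1 and a blue square for wild-type lung. Open symbols are values below the floor, drawn at the floor of 1.00 (dotted). Most pairs nearly touch. Gata1, Hoxd9, Sox18, Klf11, Meis1, Tbx2, Klf15 and Tbx3, lower by at least 1.5-fold, have the red circle clearly left of the blue square. Gata2, just short of that size, looks alike, and Gata5 has the circle to the right.

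Between families, the Meis, Tbx and Sox genes were the lowest and the Nkx genes the highest, at the floor used here. The medians were -0.49 over 2 Meis genes, -0.38 over 7 Tbx genes, -0.34 over 6 Sox genes, -0.18 over 11 Klf genes, -0.14 over 5 Gata genes, -0.14 over 11 Hox genes and 0.12 over 3 Nkx genes. Pbx3, the only Pbx gene, was at -0.11. These signs were the same with quantile, median and loess scaling and with the deposited values. Which families came next after Meis depended on the floor. Klf genes moved down under a lower floor, to -0.30 at the 25th percentile, where Tbx stood at -0.27 and Sox at -0.20. Without any floor Klf was at -0.43, next to Tbx at -0.44, while Gata was at -0.29 and Sox at -0.19. Meis stayed the lowest family and Nkx the highest in both cases. The medians of neighbouring families differ by less than the probe SD, and no test between families is possible on 1 array a group. The families are also unlike in how much of them was measured, from 3 of 9 Nkx and 11 of 30 Hox genes to 11 of 14 Klf and 5 of 6 Gata genes.

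**Figure D2:**
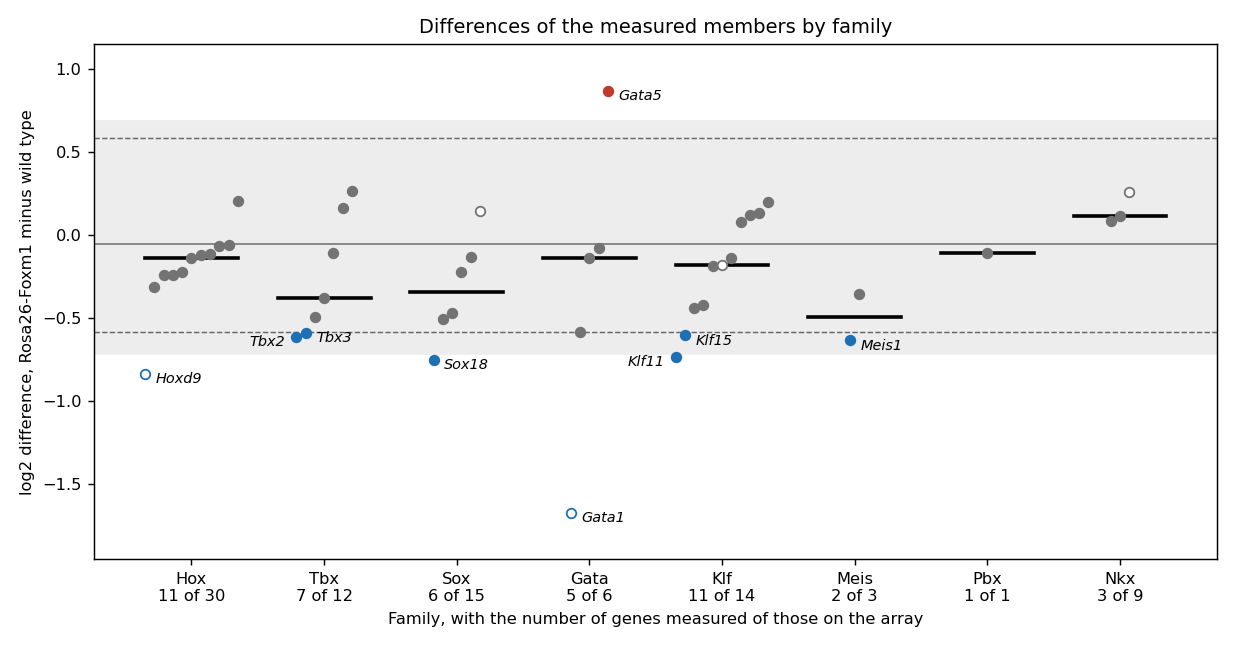
Log2 difference (Rosa26-Foxm1 minus wild type) of each measured member by family, with the family median as a bar, open circles for bounds, and dashed lines at 1.5-fold. The grey band holds the 5th to 95th percentile of all measured genes, from -0.71 to 0.69, and the grey line their median of -0.06. Gata1, Hoxd9, Sox18 and Klf11 lie below the band and Gata5 above it.

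Of the 4 T-box genes of the lung mesenchyme, Tbx2 and Tbx3 were lower by 1.5-fold in Rosa26-Foxm1 lung, though not with loess scaling (-0.56 and -0.54), and Tbx4 and Tbx5 lay below 0 without reaching that size. Tbx2, a repressor that keeps mouse lung mesenchyme dividing, had 12.4 in Rosa26-Foxm1 and 19.0 in wild-type lung (-0.61, 1.53-fold lower). Tbx3, its closest relative, had 41.2 in Rosa26-Foxm1 and 61.9 in wild-type lung (-0.59). Both are larger than the probe SD for genes of this brightness, and both are at the edge of the 1.5-fold size, which is 0.58 on the log2 scale. Tbx5, which with Tbx4 supports outgrowth of the lung bud, had 4.33 in Rosa26-Foxm1 and 6.09 in wild-type lung (-0.49). Tbx4 had 1.46 in Rosa26-Foxm1 and 1.89 in wild-type lung (-0.38), close to the floor on both. For these dimmer genes the error of a probe is 0.38, about the size of the Tbx4 difference. In the reference annotation Tbx4 is the protein-coding gene next to Tbx2 on chromosome 11, and Tbx5 the one next to Tbx3 on chromosome 5, so the 4 genes form 2 pairs of neighbours.

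The remaining measured T-box genes lay nearer to 0. Tbx1, a gene of the pharyngeal arches, had 5.79 in Rosa26-Foxm1 and 4.83 in wild-type lung (0.26). Tbx6, which acts in paraxial mesoderm, had 4.70 in Rosa26-Foxm1 and 5.06 in wild-type lung (-0.11). Both are within the probe SD. Tbx10, Tbx15, Tbx18, Tbx19 and Tbx20 were below the floor on both arrays.

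Partners of Tbx4 and Tbx5 in the lung mesenchyme were listed beside them, and 9 were measured. None was higher by 1.5-fold and 4 were lower, and the median was -0.30. The lowest were Wnt2, a ligand of early lung mesenchyme, at 43.9 in Rosa26-Foxm1 and 74.7 in wild-type lung (-0.77), and the forkhead genes Foxf2 (-0.66) and Foxf1 (-0.61). Gli1, a target and effector of hedgehog signalling, was the highest at 0.52, followed by Gli3 (0.18) and the regulator Osr1 (-0.16). Fgf10, the ligand whose expression Tbx4 and Tbx5 support in the mouse, and the receptor gene Ptch1 were below the floor on both arrays.

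Stromal markers had medians below 0. All 10 fibroblast markers were measured, of which 9 lay below 0 and 3 were lower by 1.5-fold. Of all measured genes, 56.0% lay below 0 and 8.45% were lower by that size. The fibroblast median was -0.24 (-0.10 with median scaling), with summed intensities of 1292 in Rosa26-Foxm1 and 1564 in wild-type lung. Of 8 smooth muscle markers, 7 were measured and all 7 were below 0, none by 1.5-fold, with a median of -0.40 and sums of 239 in Rosa26-Foxm1 and 303 in wild-type lung. Npnt (-0.98), Pdgfra (-0.88) and Tcf21 (-0.60, also in the partner list) were the lowest fibroblast markers and Lum (0.52), Dcn (-0.04) and Col1a1 (-0.16) the highest. Of the smooth muscle markers Des (-0.56), Myh11 (-0.52) and Mylk (-0.42) were lowest, Tagln (-0.10), Lmod1 (-0.24) and Smtn (-0.28) highest, and Cnn1 stayed below the floor. The part of stromal cell content in the T-box values was not tested.

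Hox genes of the anterior groups differed little, and 1 dim gene stood apart. Of the 16 genes in paralogue groups 1 to 7, the part of the clusters used in anterior tissues such as the lung, 10 were measured, against 1 of the 14 genes in groups 8 to 13. By cluster, 5 of 7 Hoxb, 4 of 9 Hoxa, 1 of 8 Hoxc and 1 of 6 Hoxd genes were measured. All 10 genes of groups 1 to 7 lay between -0.31 and 0.21, none reached 1.5-fold, and 9 of the 10 were below 0.

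Hoxa5, the Hox gene with the best known role in mouse lung formation, had 75.4 in Rosa26-Foxm1 and 88.0 in wild-type lung (-0.22). Hoxb5, which affects branching of the airways, had 9.86 in Rosa26-Foxm1 and 10.8 in wild-type lung (-0.14). Hoxb4, known from blood stem cells, had 28.8 in Rosa26-Foxm1 and 35.8 in wild-type lung (-0.31). Hoxb4 was the lowest of the 10, at the size of the overall probe SD (0.31) and beyond that of brighter genes (0.23).

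Hoxa7 (-0.07), Hoxb6 (-0.12), Hoxa3 (-0.12) and Hoxb3 (-0.06) differed by much less than a probe's error. Hoxb2 and Hoxa2, which pattern the hindbrain, were both at -0.24, and Hoxc4 at 0.21 was the 1 Hox gene above 0. Hoxd9 was the exception in size. It had 0.773 in Rosa26-Foxm1 lung, under the floor, and 1.79 in wild-type lung, which gives at least 1.78-fold lower. Its wild-type value is itself less than 2 times the floor, so the difference rests on a dim probe. Hoxa6, Hoxc5, Hoxc6, Hoxd1, Hoxd3 and Hoxd4 were below the floor on both arrays, as were the other 13 genes of groups 8 to 13.

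**Figure D3:**
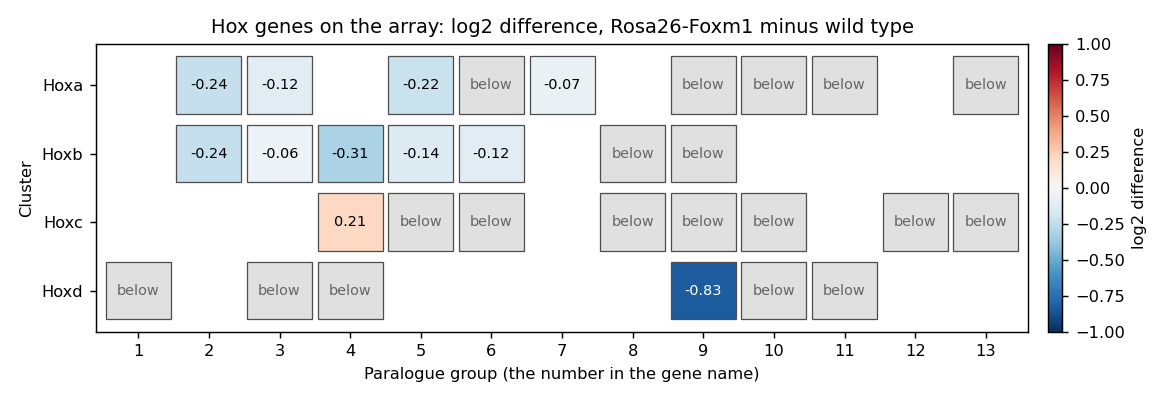
Map of the 30 Hox genes on the array by cluster and paralogue group, with the log2 difference (Rosa26-Foxm1 minus wild type) printed in measured genes and grey boxes for genes below the floor on both arrays. Empty positions have no gene with a single-gene probe here. The measured Hoxa and Hoxb genes lie in groups 2 to 7, all between -0.31 and -0.06, and Hoxd9 (-0.83, a bound) stands alone on the right.

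Among cofactors of the Hox proteins, both measured Meis genes were lower in Rosa26-Foxm1 lung. Meis1, a TALE homeodomain partner of Hox and Pbx proteins, had 38.8 in Rosa26-Foxm1 and 60.1 in wild-type lung (-0.63, 1.55-fold lower). Meis2 had 25.7 in Rosa26-Foxm1 and 32.8 in wild-type lung (-0.35). Pbx3 had 14.5 in Rosa26-Foxm1 and 15.7 in wild-type lung (-0.11), and Meis3 did not reach the floor. Both Meis genes lie beyond the probe SD and Pbx3 within it.

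Other TALE genes were not lower as a list, with a median of 0.12 over 7 of 8 measured. Irx1, a homeobox gene of lung epithelium, had 17.4 in Rosa26-Foxm1 and 11.0 in wild-type lung (0.67), and Irx5 (0.52) and the repressor Tgif1 (0.41) were also above 0. Pknox1, which like Meis pairs with Pbx, was at -0.64, followed by Tgif2 (-0.07) and Irx2 (0.06). Of the 7, 1 was higher and 1 lower by 1.5-fold or more.

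Genes that set Hox expression through chromatin showed no difference of 1.5-fold among 9 measured of 14, with a median of -0.11. The Polycomb genes Cbx2 (-0.42), Suz12 (-0.37) and Rnf2 (-0.25) were lowest, and Cbx8 (0.45), Bmi1 (0.04) and Ezh2 (0.03) highest. In the retinoic acid pathway, an inducer of Hox genes, 1 of 9 measured genes was 1.5-fold lower and none higher, with a median of -0.17. Lowest were the retinaldehyde dehydrogenase Aldh1a1 (-0.64), the receptor Rarg (-0.42) and Aldh1a2 (-0.41), and highest the binding proteins Crabp1 (0.48) and Crabp2 (0.39) and the retinal reductase Dhrs3 (-0.05). Stra6, the retinol transporter, was at the floor in wild-type lung and is not ranked.

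Among Sox genes, those of endothelium were lower in Rosa26-Foxm1 lung. Sox18, a SoxF factor of blood and lymphatic vessels, had 48.7 in Rosa26-Foxm1 and 81.9 in wild-type lung (-0.75, 1.68-fold lower). Its relative Sox7 had 93.5 in Rosa26-Foxm1 and 129 in wild-type lung (-0.47, 1.38-fold lower). Gata2, which acts in endothelium as well as in mast cells and blood progenitors, had 47.9 in Rosa26-Foxm1 and 71.7 in wild-type lung (-0.58, just short of 1.5-fold). All 3 were bright and lay beyond the probe SD of 0.23 for such genes.

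The Klf genes of endothelium were close to equal in both lungs. Klf2, which blood flow induces in endothelium, had 23.6 in Rosa26-Foxm1 and 21.5 in wild-type lung (0.13), and its other probe gave 15.2 in Rosa26-Foxm1 and 14.3 in wild-type lung (0.09). Klf4, which shares targets with Klf2, had 20.5 in Rosa26-Foxm1 and 18.9 in wild-type lung (0.12). Both genes were within the probe SD and above 0 under every scaling tried. Klf2 is the 1 member whose value was seen by more than 1 probe, and the pair gave the same direction.

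Endothelial genes known as targets of Klf2 or Klf4 had a median of -0.49 over 9 measured of 12, 3 of them lower by 1.5-fold or more and 0 higher. The list was not split into induced and repressed genes, so its median does not measure Klf2 or Klf4 activity. Thrombomodulin (Thbd), an anticoagulant receptor, had 292 in Rosa26-Foxm1 and 464 in wild-type lung (-0.67), Tek, the angiopoietin receptor, was at -0.65 and Hey1, a Notch effector, at -0.61. At the other end were Ptgds (0.28, a bound), Vcam1 (-0.15) and Nos3, the endothelial nitric oxide synthase (-0.40). Markers of endothelium itself were lower too. Of 12 listed, 11 were measured and all 11 lay below 0. The 1.5-fold size was reached by 8, and the median was -0.81, or -0.56 with median scaling. Tek stands in both lists. Their summed intensity was 1425 in Rosa26-Foxm1 and 2290 in wild-type lung, and no named marker was below the floor on both arrays. The lowest were Calcrl (-1.15), Pecam1 (-1.08) and Cdh5 (-0.94), and the highest Ramp2 (-0.08), Emcn (-0.39) and Cldn5 (-0.58). How much of the Sox18, Sox7 and Gata2 values goes with endothelial content was not tested.

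Of the other Sox genes, Sox13 was lower by slightly more than Sox7, and the rest differed less or were dim. Sox13, a SoxD factor known from mouse gamma-delta T cells, had 24.97 in Rosa26-Foxm1 and 35.4 in wild-type lung (-0.51, 1.42-fold lower). Sox4, a factor of progenitor cells and lymphocytes, had 15.0 in Rosa26-Foxm1 and 16.5 in wild-type lung (-0.13). Sox2, which marks airway epithelium, had 3.69 in Rosa26-Foxm1 and 4.30 in wild-type lung (-0.22). Of these, Sox13 alone was beyond the probe SD. Sox1, a neural gene, had 1.11 in Rosa26-Foxm1 lung and 0.232, under the floor, in wild-type lung. Sox3, Sox6, Sox8, Sox9, Sox11, Sox12, Sox15, Sox21 and Sox30 were below the floor on both arrays.

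The epithelial regulators were close to equal in both lungs. Nkx2-1, the lung and thyroid homeobox factor, had 2.01 in Rosa26-Foxm1 and 1.85 in wild-type lung (0.12). Gata6, which works with Nkx2-1 in the distal lung, had 11.2 in Rosa26-Foxm1 and 11.8 in wild-type lung (-0.08). Klf5, a factor of proliferating and airway epithelium, had 24.9 in Rosa26-Foxm1 and 21.6 in wild-type lung (0.20). All 3 differed by less than the probe SD, and the Nkx2-1 probe was close to the floor on both arrays.

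Genes known as targets of Nkx2-1 pointed both ways. Of 13 listed, 9 were measured, 1 was at least 1.5-fold higher and none lower, 4 were above 0 and 5 below, and their median was -0.29, but -0.01 with median scaling. Surfactant protein D (Sftpd) had 411 in Rosa26-Foxm1 and 215 in wild-type lung (0.93) and Sftpa1 was at 0.51, as against -0.52 for both Sftpc and Scgb1a1, the club cell secretory protein. Cldn18, a tight junction protein, was the third highest at 0.24 and Lpcat1, an enzyme of surfactant lipid synthesis, the third lowest at -0.32. Alveolar markers had a median of -0.05 over 8 measured of 10 (0.16 with median and 0.03 with loess scaling), with sums of 5207 in Rosa26-Foxm1 and 5240 in wild-type lung, and 6 of the 8 are also in the target list. The other 2 were Pdpn (0.24) and Ager (-0.20). Airway markers had a median of 0.07 over 5 of 9, with sums of 3188 in Rosa26-Foxm1 and 4301 in wild-type lung. Scgb1a1, also in the target list, was the lowest of them at -0.52, with 1767 in Rosa26-Foxm1 and 2529 in wild-type lung. The others were Cyp2f2 (-0.34), Tekt1 (0.07), Foxj1 (0.09) and Krt14 (0.55, a bound). The basal cell markers Krt5, Krt15 and Trp63 were below the floor on both arrays.

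The remaining Nkx genes were dim. Nkx2-5, the heart muscle homeobox factor, had 2.97 in Rosa26-Foxm1 and 2.79 in wild-type lung (0.09). Nkx2-4, a relative of Nkx2-1, had 1.202 in Rosa26-Foxm1 lung and 0.406, under the floor, in wild-type lung, and the other 6 Nkx genes were below it on both arrays. The lung samples did hold heart muscle transcripts, since 9 of 10 heart muscle markers were measured, with sums of 752 in Rosa26-Foxm1 and 1009 in wild-type lung and a median of -0.20. Of these Myh6, the atrial myosin heavy chain of the mouse, was at -0.96, Actc1 at -0.32 and Myl7 at -0.27, and Nppa at 0.40, Sln at 0.32 and Tnni3 at 0.12.

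Gata genes spanned the widest range of any family. Gata1, which drives red cell, platelet, mast cell and eosinophil development, had 0.291 in Rosa26-Foxm1 lung, under the floor, and 3.19 in wild-type lung, so it was at least 3.18-fold lower. It was the 1 member past 2-fold. Gata5, a factor of heart and gut endoderm, had 2.97 in Rosa26-Foxm1 and 1.62 in wild-type lung (0.87, 1.83-fold higher), and was the 1 member at least 1.5-fold higher. Both rest on single dim probes, and both are more than 2 times the dim-probe SD of 0.38 from 0. They are the lowest and highest of the 46 members, so their distance from 0 partly reflects that choice. That SD covers pairs up to an intensity of 10.5, and the error of probes as dim as these was not estimated apart. Gata4 was below the floor on both arrays.

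Markers of the Gata1 lineages gave no common direction. Of 10 red cell and platelet markers, 4 were measured: Alas2, the haem synthesis enzyme of red cells, had 55.4 in Rosa26-Foxm1 and 106 in wild-type lung (-0.94), the globin Hba-a1 was at -0.37, and the platelet chemokines Ppbp and Pf4 were at 0.32 and 0.97. Their sums were 1788 in Rosa26-Foxm1 and 2268 in wild-type lung. Of 11 mast cell, basophil and eosinophil markers 3 were measured, with Tpsb2, a mast cell tryptase, at 1.00, Hdc at 0.12 and Kit at -0.78, and sums of 112 in Rosa26-Foxm1 and 122 in wild-type lung. Cpa3, Fcer1a, Ms4a2, Il5ra, Ccr3, Prg2 and Epx were below the floor on both arrays. Their part in the Gata1 value was not tested.

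The lymphocyte regulators were near equal. Gata3, the factor of type 2 helper T cells and innate lymphoid cells, had 11.7 in Rosa26-Foxm1 and 12.9 in wild-type lung (-0.14). Tbx21, which encodes T-bet of type 1 helper T cells and NK cells, had 1.66 in Rosa26-Foxm1 and 1.48 in wild-type lung (0.16). Neither passed the probe SD. Markers of T and NK cells, 7 of 10 measured, had a median of 0.05, 2 of them higher by 1.5-fold or more and 0 lower, and sums of 68.4 in Rosa26-Foxm1 and 62.1 in wild-type lung. Cd3g (0.76), Cd28 (0.60) and Cd3d (0.35) were highest and Cd5 (-0.41), Prf1 (-0.38) and Cd3e (-0.34) lowest, while Cd4 was below the floor on both arrays.

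Proteins that act with GATA factors were listed with them. Of 9 measured of 10, 1 was at least 1.5-fold higher and 1 lower, with a median of -0.11. Erg, an ETS factor of endothelium and blood, was below the floor in Rosa26-Foxm1 lung (-0.88, a bound), and the LIM adaptor Ldb2 (-0.52) and Fli1 (-0.48) followed. Zfpm2, which binds GATA proteins, was above the floor in Rosa26-Foxm1 lung only (0.72, a bound), and Lyl1 (0.07) and Lmo2 (-0.07) were near 0.

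Of 11 measured Klf genes, 4 were lower by more than the probe SD. Klf11 and Klf10, repressors that TGF-beta induces, were both lower. Klf11 had 13.4 in Rosa26-Foxm1 and 22.4 in wild-type lung (-0.73, 1.66-fold lower), and Klf10 had 54.6 in Rosa26-Foxm1 and 74.0 in wild-type lung (-0.44, 1.36-fold lower). Klf13, a relative of both that acts in T cells, had 225 in Rosa26-Foxm1 and 301 in wild-type lung (-0.42), and -0.23 with median scaling. Klf15, a metabolic regulator that glucocorticoids induce, had 3.601 in Rosa26-Foxm1 and 5.47 in wild-type lung (-0.60, 1.52-fold lower). Of the other 7, 6 lay within that error and Klf8 has a bound only.

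Klf6 (-0.18), Klf7 (-0.14) and Klf16 (0.08), widely expressed members, were within it, as were Klf2, Klf4 and Klf5 with values of 0.13, 0.12 and 0.20. Klf8 had 0.581 in Rosa26-Foxm1 lung, under the floor, and 1.14 in wild-type lung, which gives a bound of -0.18. Klf1, Klf12 and Klf17 were below the floor on both arrays. The Sp factors, which share their zinc fingers and GC box binding with the Klf proteins, had 3 of 8 genes measured, with Sp5 at 0.81 (2.12 in Rosa26-Foxm1 and 1.21 in wild-type lung), Sp4 at 0.14 and Sp6 at -0.22. Of these, 1 was at least 1.5-fold higher and none lower, and the median was 0.14.

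**Figure D4:**
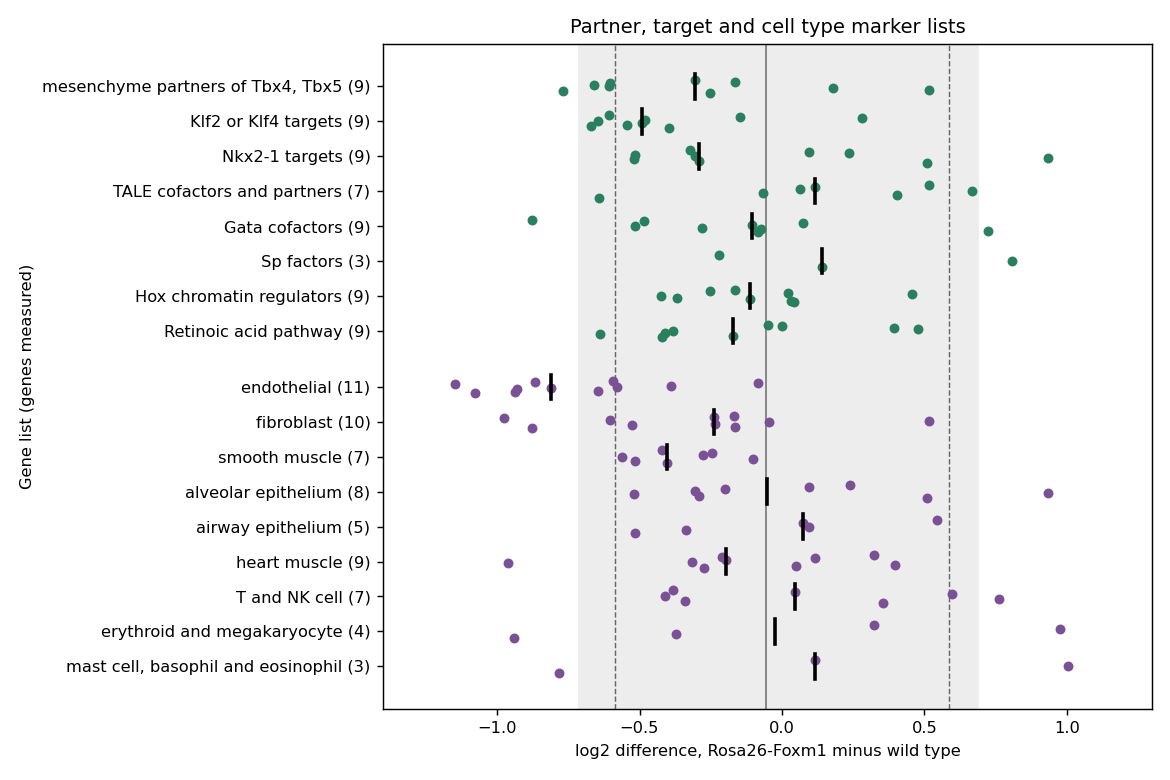
Log2 difference (Rosa26-Foxm1 minus wild type) of the measured genes of each partner or target list (green) and each cell type marker list (purple), with the number measured in brackets, black bars at the medians and dashed lines at 1.5-fold. The grey band and line are the 5th to 95th percentile and the median (-0.06) of all measured genes. Endothelial markers (-0.81), targets of Klf2 or Klf4 (-0.49) and smooth muscle markers (-0.40) have the lowest medians.

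Of the 8 members counted as 1.5-fold lower, Sox18, Klf11, Gata1 and Hoxd9 were past that size under each of the 4 scalings. Meis1 and Tbx3 were short of it with median scaling, at -0.57 and -0.52, and Klf15, Tbx2 and Tbx3 with loess scaling, at -0.58, -0.56 and -0.54. Gata5 was past it in the other direction under all 4 scalings. No measured member changed sign between scalings.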

How the data were processed

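Lung RNA was hybridised to 2 one-colour arrays, each from a pool of 3 mice. The RNA was transcribed into cRNA carrying a DIG label, per the labels' protocols. The authors deposited linear intensities, 1 per probe and array, with medians of 1.00 on both. How the authors read the arrays, corrected background and normalised is, in the sources used here, not given.

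Of 33012 probes, 14411 had 1 gene in the platform annotation, 247 had several and were not named, and 18354 were unnamed here. Symbols were updated through the gene ID to RefSeq (GRCm38.p6), which 13832 of 13840 genes matched. 1 probe listed a pair of Hox genes and was not used. Not every gene of the named families is reported here.

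Deposited intensities were converted to log2, quantile normalised and set to a floor at the 50th percentile of an array. A gene was taken by its brightest probe. The procedure was tested on simulated data with known 2-fold differences in brighter genes and noise smaller than the probe SD. That test does not show how well smaller differences or dim genes are recovered. Members, gene lists, sizes and alternatives were chosen with earlier results of these data known. Every measured member is named, with up to 3 measured genes at each end of every list. Some marker genes stand in 2 lists. Motifs were searched with Python 3.11.15, and loess (span 0.3) used statsmodels 0.14.6. Each array is 1 sample, so precision is limited by the number of arrays.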

Additional observations from a re-analysis of the deposited data

How the results depend on the processing

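No paired analysis was possible because each group had 1 array. The counts of members at least 1.5-fold higher and lower, 1 and 8, were 1 and 6 of 46 with median scaling or the deposited values. Of all measured genes, 7.13% were higher with both, and 8.46% and 8.48% lower. With loess the counts were 1 and 5 of 47, against 7.76% and 7.65% of all measured genes. The contrast with all genes was thus smaller under these scalings. At the 2-fold size the counts were 0 and 1, against 1.98% and 1.51% of all measured genes. With the floor at the 25th percentile, 75 members were measured and 6 were higher and 12 lower, where 10.9% and 12.4% of all measured genes were. With the floor at the 75th percentile, 26 were measured, and 0 were higher and 5 lower, against 4.29% and 5.24% of all measured genes, with no Nkx gene left. With no floor, all 90 members were counted, 14 higher and 21 lower, against 13.2% and 14.4% of all genes, and a count above the floor does not exist. Fewer or more genes counted follows from the floor by its construction. The median over probes left both counts as they were. The median of the measured members ran from -0.23 to -0.11 over these settings, and that of the Hox family reached 0.09 with no floor. Over all measured genes no scaling moved the median by more than 0.03. Some list medians moved more with median scaling, that of endothelial markers from -0.81 to -0.56 and that of Nkx2-1 targets from -0.29 to -0.01. Member values that moved by over the probe SD were those of Gata1, Hoxd9, Klf8, Nkx2-4 and Sox1, all below the floor on 1 array. On their brighter array 7 of the 46 measured members were under 2 times the floor, Hoxd9, Klf8, Nkx2-4 and Sox1 among them.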

Other observations

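Marker lists of other cell types were also read. Macrophage markers spread from -1.26 for Siglecf to 4.42 for Gpnmb, with 7 of 9 measured, 3 at least 1.5-fold higher, 2 lower and a median of 0.06. Marco (-0.75, a bound) and Adgre1 (-0.56) also lay below 0, and Trem2 (2.91) and Ctsk (2.28), the osteoclast protease cathepsin K, were the next highest. The sums were 273 in Rosa26-Foxm1 and 84.3 in wild-type lung. B and plasma cell markers had a median of 0.27 over 6 of 8, with 3 higher and 1 lower. Jchain (3.06), Mzb1 (1.59) and Blnk (0.60) stood at the top and Ms4a1 (-0.96), Cd79b (-0.54) and Cd79a (-0.07) at the bottom, while the B cell factor Pax5 was below the floor on both arrays. The sums were 478 in Rosa26-Foxm1 and 122 in wild-type lung.

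Mesothelial markers, all 5 measured, had a median of -0.18, with none past 1.5-fold and sums of 155 in Rosa26-Foxm1 and 201 in wild-type lung. Msln (-0.57), Upk3b (-0.23) and Krt19 (-0.18) were the lowest and Lrrn4 (0.23) and the factor Wt1 (0.12) the highest. Of 8 Schwann and neural crest markers 2 were measured, Cnp at -0.75 and Mbp at -0.01, with a median of -0.38. The sums were 4.70 in Rosa26-Foxm1 and 6.64 in wild-type lung.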
